A study of Mus musculus with 33 samples.

Results

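The 10 genes described here were chosen by their difference between cone-directed and rod-directed cultures of mouse retinal progenitor cells, a difference that was kept or reversed over the days of culture. They are 10 of the 47729 genes in the count tables: Csn3, Tnfrsf1b, Edaradd, Hmgcll1, Adamts4, Il17ra, Aif1l, Ier3, Prkd1 and Ngfr. All 10 passed the filter on low counts, which 18150 genes passed. Because the cone minus rod values chose these genes, those values are given as a description. Calls of the 10 genes on these values are counted beside the share of all genes called, and nothing is read from such counts. The tests are of how the genes changed with time when both cultures are averaged, a different contrast from the one that chose them. Where 1 of the groups averaged is at or near 0 counts, the same few counts set both contrasts, and the average is then also given with no test. This holds for Csn3 and Tnfrsf1b at every day and for Edaradd at day 35.

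The cells came from C57BL/6J mouse retina at embryonic day 14 and are labelled as retinal progenitors, which divide and later become retinal neurons or Muller glia. All groups share this strain, tissue and age. At day 0 there were untreated cells, cells primed for cone induction with COCO protein, an inhibitor that binds BMP, TGF-beta and Wnt ligands outside the cell, and cells primed for rod induction with taurine + retinoic acid. At days 5, 12, 21 and 35 there were cone induction cultures with COCO protein and rod induction cultures with taurine + retinoic acid. Each of the 11 groups had 3 libraries, 33 in all. The labels do not say whether replicates came from separate cultures or animals, so p-values measure only the spread between these libraries. "Cone" and "rod" name the treatment here and not the cells obtained.

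Most of the proteins sit in signalling from the cell surface. Tnfrsf1b encodes TNF receptor 2, and Ngfr encodes the low-affinity neurotrophin receptor p75, a member of the same receptor superfamily. Il17ra encodes the shared subunit of the interleukin-17 receptors. Edaradd encodes the death-domain adaptor of the ectodysplasin receptor Edar. Prkd1 is a diacylglycerol-regulated serine/threonine kinase of the protein kinase D family, and Ier3 is an immediate-early gene induced by growth factors and stress. Aif1l encodes an actin-bundling relative of the microglial protein Aif1. The other three work outside this group: Adamts4 is a secreted protease that cleaves the proteoglycan aggrecan, Hmgcll1 is a lyase that splits HMG-CoA in ketone body synthesis, and Csn3 encodes kappa-casein, the milk protein that stabilises casein micelles.

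On mouse build GRCm38 the genes lie on 10 different chromosomes and all are protein-coding. As the deposited tables give them, Csn3 is at chr5:87925579-87932665, Tnfrsf1b at chr4:145213463-145246870, Edaradd at chr13:12471209-12520450, Hmgcll1 at chr9:76014855-76136350 and Adamts4 at chr1:171250421-171260637. Il17ra is at chr6:120463247-120487559, Aif1l at chr2:31950139-31973442, Ier3 at chr17:35821684-35822923, Prkd1 at chr12:50341231-50649223 and Ngfr at chr11:95568818-95587735.

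Upstream sequence from RefSeq (GRCm38.p6) was held for 7 of the 10 genes. The 250 bases before the RefSeq start are shown for 3 genes on which the account turns: Tnfrsf1b and Ier3, both higher in rod cultures at all 5 days, and Edaradd, higher in cone cultures at all 5 days. Each is written 5′ to 3′ on the gene's strand, and capitals mark matches to 3 motifs that were picked after the sequences had been seen. The motifs were the retinoic acid receptor half-site (AGGTCA and its variants GGTTCA and AGTTCA and GGGTCA), the kappa B consensus and TATAA, all searched on both strands.
Tnfrsf1b, chr4:145246871-145247120, minus strand: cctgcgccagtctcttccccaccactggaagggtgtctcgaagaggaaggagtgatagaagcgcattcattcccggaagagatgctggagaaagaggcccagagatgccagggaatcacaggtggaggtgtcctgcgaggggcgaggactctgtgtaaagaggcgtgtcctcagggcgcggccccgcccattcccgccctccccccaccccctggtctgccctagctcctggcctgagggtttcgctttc
Edaradd, chr13:12520451-12520700, minus strand: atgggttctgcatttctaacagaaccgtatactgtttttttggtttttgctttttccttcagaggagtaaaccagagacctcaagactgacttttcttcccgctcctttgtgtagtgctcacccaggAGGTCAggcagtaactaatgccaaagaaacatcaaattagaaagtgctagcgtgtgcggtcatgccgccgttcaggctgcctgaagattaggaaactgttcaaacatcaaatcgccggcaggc
Ier3, chr17:35821463-35821712, plus strand: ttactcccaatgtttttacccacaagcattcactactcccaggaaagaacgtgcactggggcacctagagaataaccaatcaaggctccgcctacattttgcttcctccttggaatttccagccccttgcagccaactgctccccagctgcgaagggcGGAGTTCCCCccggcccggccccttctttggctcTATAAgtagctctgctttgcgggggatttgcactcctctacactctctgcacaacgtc
The Tnfrsf1b window held none of these letters. The Edaradd window held AGGTCA at 123 to 118 bases upstream. In Ier3 a kappa B match, GGAGTTCCCC as written here, lay 92 to 83 bases upstream and TATAA lay 58 to 54 bases upstream. Positions are counted from the RefSeq start. For Ier3 that start lies inside the gene as placed by the deposited tables, so the end of its window overlaps the gene. Of the 7 windows, 1 held a half-site, 2 (Ier3 and Prkd1, where 2 matches overlap) held a kappa B match and 1 held TATAA. Among 32851 mouse promoters the shares were 38.6%, 3.90% and 22.8%. These matches are a description of letters and no factor's binding was measured.

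Gene counts ran from 7511837 to 19166442 per library (median 12985662). Levels are CPM, counts per 1000000 gene counts after TMM scaling. A count of 0 allows up to 3 counts, and this floor came to 0.174 to 0.407 CPM. Floors and intervals cover counting error only. Markers of retinal progenitors summed to 1110 to 1213 CPM in untreated cells, led by Pax6, and to at least 813 CPM in every later library. The single markers did not move together. With both cultures averaged, 3 of the 10 were higher and 4 lower at day 35 than at day 0 (edgeR adjusted p under 0.05). Of all genes, 35.5% were higher and 31.8% lower. Fgf15 was at 0 in cone cultures of days 21 and 35 and in rod cultures of day 21. Photoreceptor markers summed to 951 to 1277 CPM in untreated cells but to 32.1 to 58.6 CPM in cone and 26.7 to 31.6 CPM in rod cultures at day 35. Rod day 12 replicate 2 stood apart, with a photoreceptor marker sum of 1071 CPM against 78.6 and 156 CPM in the other two libraries of its group. Without it the averaged day 12 value of Csn3 moved by 0.64 and those of the other 9 genes by at most 0.12 on the log2 scale. Cone minus rod values at day 12 are given with and without it. These are bulk libraries, so fewer cells of a type and less RNA per cell cannot be told apart.

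**Figure D1:**
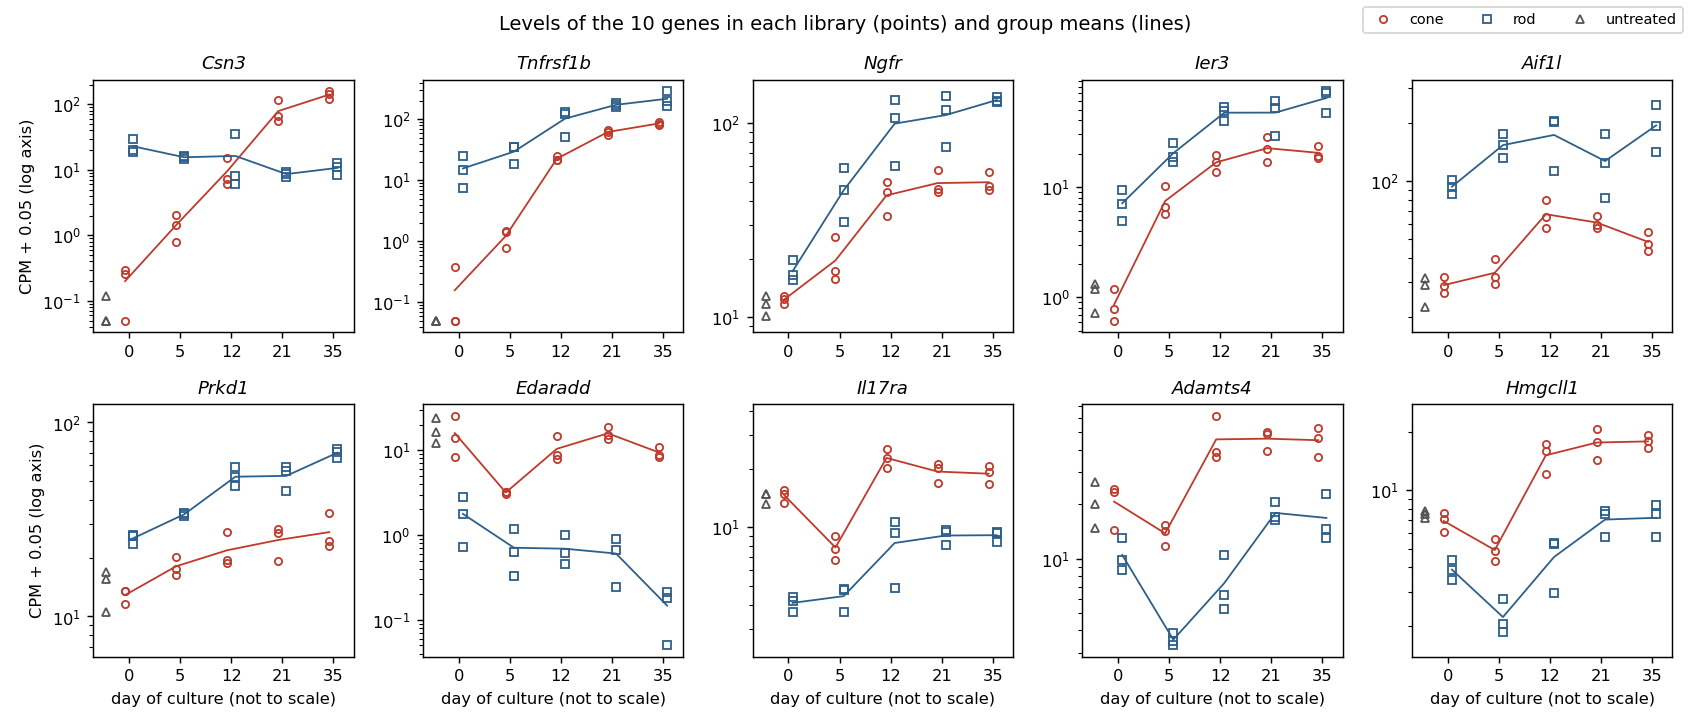
CPM of each of the 10 genes (log axis, 0.05 added so that 0 can be drawn, scale set per panel) against day of culture, with 1 point per library, lines through the means of 3 libraries, and untreated cells left of day 0. Csn3 crosses between cultures near day 12, while the other 9 genes keep 1 culture above the other from day 0 to day 35.

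Seen by culture, the set split into 5 genes higher in rod cultures (Tnfrsf1b, Ngfr, Ier3, Aif1l, Prkd1), 4 genes higher in cone cultures (Edaradd, Il17ra, Adamts4, Hmgcll1) and Csn3, which changed sides. Cone and rod libraries did not overlap for 10 of 10 genes at days 0, 5, 21 and 35 and for 9 of 10 at day 12, where Csn3 overlapped. No share over all genes is given for this count, and nothing is read from it. In the model across all genes, 4 of the 10 were called higher and 5 lower in cone primed than in rod primed cells, where 2.50% of all genes were called higher and 4.77% lower. Day 5 had 4 higher and 6 lower (3.48% and 5.80% of all genes) and day 12 had 4 and 5 (5.98% and 4.12%). Days 21 and 35 both had 5 and 5, where 5.86% and 3.14% of all genes were called at the former and 7.77% and 4.51% at the latter. A call is a Benjamini-Hochberg adjusted p under 0.05 by edgeR's quasi-likelihood test. A call with 1 sign at each of the 5 days was found for 8 of the 10 genes, and for 96 of the 18150 genes tested. These counts restate how the set was chosen.

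Tnfrsf1b was the receptor with the widest range. It had 0 counts in all 3 untreated libraries, and the cone primed libraries held 0, 4 and 0 counts. Rod primed libraries stood at 14.5, 7.46 and 24.9 CPM, at least 59.5-fold higher than untreated cells when these are set to the floor over the group. In cone cultures the libraries read 1.40, 0.730 and 1.39 CPM at day 5, 21.8, 21.2 and 24.6 CPM at day 12, and 80.7, 91.8 and 84.3 CPM at day 35. Rod cultures read 35.4, 18.4 and 34.8 CPM at day 5, 123, 52.3 and 133 CPM at day 12, and 289, 167 and 197 CPM at day 35. The rod libraries were above the cone libraries at every day, and in both cultures the libraries of day 35 were above all earlier ones of day 12 or before. The cone minus rod log2 fold change went from -6.78 ± 0.69 (SE from the model, n = 3 per group here and below) at day 0 through -4.64 ± 0.44, -2.19 ± 0.34 and -1.48 ± 0.33 to -1.35 ± 0.32 at day 35. The day 0 value rests on 4 counts in 1 cone primed library and cannot be fixed without it, since that group is then at 0. At day 12 the value was -2.51 without rod day 12 replicate 2.

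The fitted averages of Tnfrsf1b over both cultures were 1.98 ± 0.51, 5.00 ± 0.37, 6.11 ± 0.36 and 6.51 ± 0.36 above day 0 on the log2 scale at days 5, 12, 21 and 35. They rest on the same 4 cone primed counts, and were 3.89, 6.91, 8.02 and 8.42 without cone primed replicate 2. From day 0 to day 35 the log2 fold change was 9.22 ± 0.62 in the cone cultures, from 4 counts, and 3.79 ± 0.36 in the rod cultures. The 10 markers of microglia, which carry TNF receptors, summed to 4.26 to 8.09 CPM in rod and 23.0 to 109 CPM in cone cultures at day 35, and their part in the level of Tnfrsf1b was not tested. Its paralog Tnfrsf1a, which encodes TNF receptor 1, was called at none of the 5 days between cultures and stood at 89.7 ± 14.5 CPM in cone and 84.4 ± 10.2 CPM in rod cultures at day 35 (SD, n = 3). The ligand gene Tnf was below the filter, with 47 counts over 33 libraries.

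Ngfr had the smallest difference at the start. Untreated libraries stood at 10.1, 11.6 and 12.8 CPM, cone primed at 12.8, 12.4 and 11.7 CPM, and rod primed at 19.7, 15.6 and 16.4 CPM. At day 35 the cone libraries were at 45.4, 56.0 and 47.7 CPM and the rod libraries at 129, 130 and 137 CPM. All 3 rod libraries were above all 3 cone libraries at both ends. The cone minus rod log2 fold change was -0.48 ± 0.26 at day 0, and between -1.16 ± 0.24 and -1.41 ± 0.24 at the 4 later days (-1.49 at day 12 without rod day 12 replicate 2). At day 12 rod replicate 2 read 60.4 CPM against 131 and 107 CPM, and at day 21 rod replicate 2 read 75.7 CPM against 139 and 116 CPM. The average of both cultures rose at every day for Ngfr, by 1.03 ± 0.18 at day 5 (edgeR adjusted p 8.18e-05) and by 2.47 ± 0.18 at day 35 (4.18e-12). Ngfr also marks neural crest and Schwann cells. The 6 markers of these cells summed to 59.5 to 139 CPM in rod and 87.9 to 124 CPM in cone libraries of days 12, 21 and 35. The sums were led by Pmp22 in each of these groups. Foxd3 was at 0 in all of these cone and rod libraries, and Sox10 was at 0 in the rod libraries and in the cone libraries of day 21. The part of such cells in the level of Ngfr was not tested.

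Il17ra was higher in cone cultures. Untreated libraries read 14.8, 13.2 and 14.7 CPM and cone primed libraries 13.3, 15.6 and 14.8 CPM, while rod primed libraries were at 4.34, 3.63 and 4.13 CPM. At day 35 the cone libraries stood at 19.2, 20.8 and 16.6 CPM and the rod libraries at 9.43, 8.41 and 9.36 CPM. At day 0 the cone primed libraries were inside or next to the untreated range, and the rod primed libraries lay below it. The cone minus rod values were 1.86 ± 0.20, 0.84 ± 0.20, 1.46 ± 0.19, 1.10 ± 0.19 and 1.06 ± 0.19 in order of days, and 1.19 without rod day 12 replicate 2. With both cultures averaged, Il17ra rose by 0.84 ± 0.14 at day 12 (edgeR adjusted p 8.76e-06) and by 0.77 ± 0.14 at day 35 (1.85e-05). Taken by culture, the change from day 0 to day 35 was 1.17 ± 0.20 in rod and 0.37 ± 0.18 in cone cultures. At day 5 the average of Il17ra fell by 0.39 ± 0.14 (adjusted p 0.0325), a call lost on leaving out any of 7 of the 12 libraries compared. Those were cone primed replicates 2 (0.0716) and 3 (0.0597), rod primed replicates 1 (0.0701) and 3 (0.0647), cone day 5 replicates 2 (0.0638) and 3 (0.0937), and rod day 5 replicate 3 (0.0935).

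The adaptor Edaradd had the largest cone minus rod value at day 35 among the 10 genes. Untreated libraries stood at 12.3, 16.3 and 23.6 CPM and cone primed libraries at 8.31, 25.4 and 13.9 CPM, whereas rod primed libraries were at 0.678, 1.71 and 2.78 CPM. Cone cultures read 3.01, 3.16 and 3.20 CPM at day 5 and 8.63, 7.77 and 14.6 CPM at day 12. By day 21 they read 18.6, 15.1 and 13.6 CPM, and by day 35 11.0, 8.76 and 8.31 CPM. Rod cultures read 1.12, 0.572 and 0.278 CPM at day 5 and 0, 0.162 and 0.129 CPM at day 35. Cone libraries of day 5 lay below those of every other day, and rod libraries ended below the floor with 0, 2 and 2 counts. Cone minus rod was 3.15 ± 0.45, 2.34 ± 0.52, 4.00 ± 0.49, 4.84 ± 0.50 and 6.40 ± 0.64 at days 0, 5, 12, 21 and 35 (3.76 at day 12 without rod day 12 replicate 2). The last value rests on 4 counts in the rod libraries, and ran from 5.91 to 6.82 when 1 library was left out.

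The average of both cultures was lower than at day 0 on all 4 later days for Edaradd, and for none of the other 9 genes. It fell by 1.95 ± 0.34 at day 5 (edgeR adjusted p 8.74e-05), by 1.05 ± 0.33 at day 12 (0.00816) and by 0.87 ± 0.34 at day 21 (0.0269). The day 35 value was -2.40 ± 0.42, resting on the 4 rod counts. The day 12 call was lost without rod primed replicate 3 (adjusted p 0.0682) and by voom with quality weights (0.0840). The day 21 call was lost without cone primed replicate 2 (0.110), rod primed replicate 3 (0.159), cone day 21 replicate 3 (0.0505) or rod day 21 replicate 3 (0.106). The fall was described by -4.03 ± 0.75 in rod cultures from day 0 to day 35 and by -0.77 ± 0.38 in cone cultures. At day 21 the mean of Edaradd in cone cultures was 15.8 CPM, beside 15.9 CPM in cone primed cells. In rod cultures the mean of Edaradd was 0.554 CPM at day 21, beside 1.72 CPM in rod primed cells. Its receptor Edar was below the filter with 99 counts over all libraries. The ligand gene Eda was called at none of the 5 days, and stood at 2.12 ± 0.404 CPM in cone and 2.09 ± 0.696 CPM in rod cultures at day 35 (SD, n = 3). Eda2r, the second ectodysplasin receptor, was also called at none of the days.

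Ier3 started near 1 CPM. Untreated libraries read 1.28, 1.13 and 0.679 CPM and cone primed libraries 1.13, 0.566 and 0.733 CPM, against 9.36, 6.95 and 4.85 CPM in rod primed cells. At day 35 cone libraries stood at 18.3, 19.1 and 23.3 CPM and rod libraries at 46.6, 73.2 and 71.0 CPM. Rod libraries were above cone libraries at all 5 days, including rod day 21 replicate 2, the lowest of its group at 29.0 CPM, which lay just over the highest cone library of 28.1 CPM. From day 0 to day 35 the cone minus rod values were -3.14 ± 0.40, -1.44 ± 0.27, -1.50 ± 0.27, -1.06 ± 0.26 and -1.65 ± 0.26, with -1.41 at day 12 without rod day 12 replicate 2. Averaged over both cultures Ier3 rose by 2.37 ± 0.24 at day 5 (edgeR adjusted p 3.91e-08) and by 3.94 ± 0.24 at day 35 (6.05e-14).

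Aif1l was between 22.3 and 31.8 CPM in the 6 untreated and cone primed libraries and at 86.0, 101 and 92.7 CPM in rod primed libraries. At day 35 the cone libraries stood at 47.5, 54.3 and 43.6 CPM and the rod libraries at 247, 140 and 193 CPM. Within rod cultures replicate 2 was the lowest library at each later day, at 131, 112, 81.4 and 140 CPM, and still lay above every cone library of the same day. Cone minus rod was -1.69 ± 0.24, -2.19 ± 0.24, -1.36 ± 0.23, -1.05 ± 0.23 and -1.99 ± 0.23 in order of days, and -1.59 at day 12 without rod day 12 replicate 2. With both cultures averaged, Aif1l rose by 1.05 ± 0.16 at day 12 (edgeR adjusted p 4.34e-06) and by 0.90 ± 0.16 at day 35 (2.63e-05). The day 5 rise of 0.46 ± 0.16 (0.0291) was lost without cone primed replicate 2 (0.0561), rod primed replicate 1 (0.0612) or 3 (0.0513), cone day 5 replicate 1 (0.0571) or rod day 5 replicate 1 (0.0709). The microglial gene Aif1 was below the filter and averaged 1.29 CPM in cone and 0.0283 CPM in rod cultures at day 35.

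Prkd1 was lower in cone cultures at every day by a similar factor. Untreated libraries read 10.5, 15.5 and 16.9 CPM, cone primed 11.6, 13.4 and 13.5 CPM, and rod primed 26.0, 26.2 and 23.5 CPM. At day 35 cone libraries stood at 23.0, 34.0 and 24.5 CPM and rod libraries at 72.8, 70.7 and 65.9 CPM. Cone minus rod was -0.97 ± 0.18 at day 0, and at the later days lay between -0.89 ± 0.17 at day 5 and -1.36 ± 0.17 at day 35. At day 12 it was -1.26, or -1.34 without rod day 12 replicate 2. The average of both cultures rose at each day for Prkd1, by 0.45 ± 0.12 at day 5 (edgeR adjusted p 0.00581) up to 1.27 ± 0.12 at day 35 (7.96e-10). Of its paralogs, Prkd2 was called between cultures at none of the 5 days. Prkd3 was called lower in cone cultures at day 0, a call lost on leaving out any of 5 of the 6 libraries, and at day 5, by -0.55 ± 0.12 at the latter (adjusted p 0.00384, or 0.0658 without cone day 5 replicate 1).

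Adamts4, the aggrecan-cleaving protease, was at 26.4, 14.7 and 19.9 CPM in untreated and 24.2, 23.4 and 14.2 CPM in cone primed libraries, and at 12.9, 8.56 and 9.79 CPM in rod primed libraries. At day 12 cone libraries stood at 36.4, 38.9 and 61.6 CPM and rod libraries at 10.4, 5.18 and 6.27 CPM. The day 35 values were 52.9, 36.4 and 46.2 CPM in cone and 13.0, 22.7 and 14.5 CPM in rod cultures. The difference was widest at day 12, with 2.65 ± 0.27 (2.45 without rod day 12 replicate 2) against 0.99 ± 0.27 at day 0 and 1.43 ± 0.26 at day 35. Averaged over both cultures Adamts4 fell by 1.07 ± 0.20 at day 5 (edgeR adjusted p 0.000148) and rose by 0.97 ± 0.19 at day 21 (5.86e-05) and 0.91 ± 0.19 at day 35 (0.00011). At day 12 the change of 0.32 ± 0.19 was not called (0.150).

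Hmgcll1 followed a similar course at lower counts. Untreated libraries were at 7.16, 7.80 and 7.47 CPM and cone primed at 7.05, 6.06 and 7.54 CPM, with rod primed at 3.39, 3.83 and 4.31 CPM. At day 35 the cone libraries stood at 17.8, 19.1 and 16.4 CPM and the rod libraries at 7.48, 5.66 and 8.33 CPM, the latter around the untreated level. Cone minus rod was 0.83 ± 0.22, 1.18 ± 0.23, 1.75 ± 0.21, 1.32 ± 0.20 and 1.31 ± 0.20 in order of days, and 1.89 at day 12 without rod day 12 replicate 2. Averaged over both cultures Hmgcll1 fell by 0.68 ± 0.16 at day 5 (edgeR adjusted p 0.00165), then rose by 0.67 ± 0.15 at day 12 (0.000443) and 1.13 ± 0.15 at day 35 (1.97e-07).

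Csn3 changed sides. It had 0, 0 and 1 counts in untreated libraries and 0, 3 and 2 counts in cone primed libraries, both at or under the floor. Rod primed libraries stood at 20.2, 18.4 and 29.8 CPM, a ratio to untreated cells of 876 with a 95% counting interval of 157 to 34670. Later rod libraries read 16.0, 14.8 and 15.8 CPM at day 5 and 8.07, 34.7 and 5.98 CPM at day 12, then 7.80, 8.73 and 9.19 CPM at day 21 and 11.0, 12.8 and 8.20 CPM at day 35. Cone libraries read 2.00, 1.40 and 0.756 CPM at day 5 and 5.95, 7.22 and 15.3 CPM at day 12. By day 21 they stood at 114, 54.8 and 67.2 CPM, and by day 35 at 159, 119 and 145 CPM. Rod libraries were above cone libraries at days 0 and 5, the groups overlapped at day 12, and cone libraries were above rod libraries at days 21 and 35.

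The cone minus rod log2 fold change of Csn3 was -7.02 ± 0.77 at day 0, from 5 against 664 counts, then -3.49 ± 0.52, -0.76 ± 0.44, 3.19 ± 0.45 and 3.73 ± 0.46. The day 12 value turned to 0.45 without rod day 12 replicate 2, the library that reads 34.7 CPM and whose photoreceptor marker sum stood apart. From day 0 to day 35 the change was 9.64 ± 0.74 in cone cultures, from 5 counts, and -1.10 ± 0.43 in rod cultures. The fitted averages over both cultures were 1.20 ± 0.58, 2.64 ± 0.49, 3.69 ± 0.46 and 4.27 ± 0.45 above day 0 in order of the later days, resting on the same 5 cone primed counts, and 2.00 at day 12 without rod day 12 replicate 2. Of the 10 other genes listed from the casein and enamel gene cluster and the milk proteins, 0 passed the filter. Csn1s1 had 1 count and Csn2 had 0 counts over all 33 libraries.

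**Figure D2:**
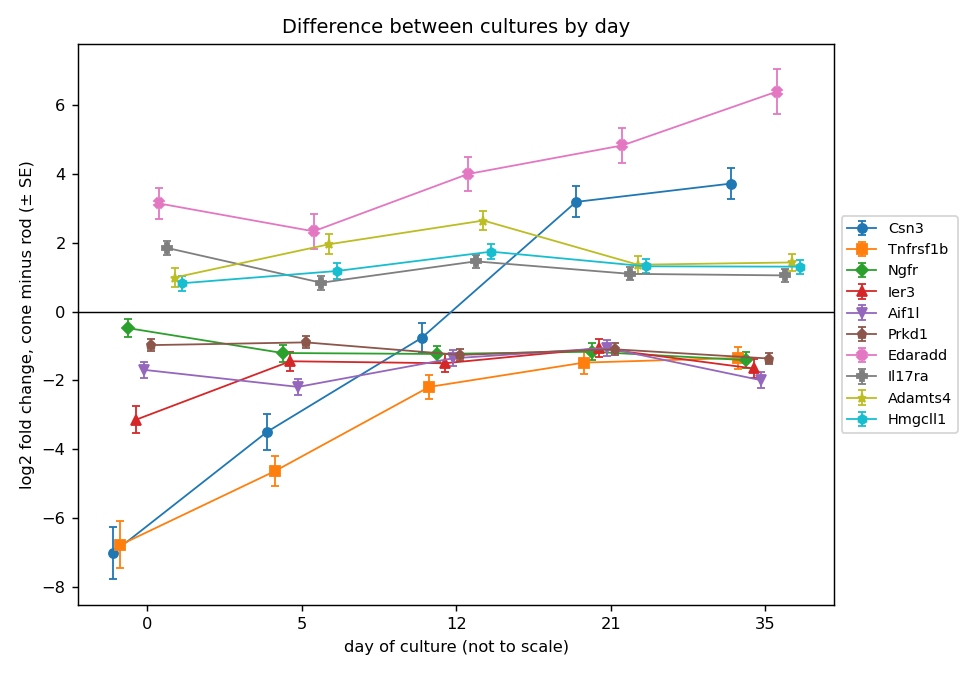
Log2 fold change of cone minus rod at each day for the 10 genes, with bars of 1 standard error from the model (3 libraries per group), points shifted sideways for legibility. Csn3 runs from -7.02 to 3.73 and Tnfrsf1b narrows from -6.78 to -1.35. Edaradd goes from 3.15 at day 0 through 2.34 at day 5 to 6.40 at day 35, and the other 7 genes stay on 1 side of 0. The day 0 values of Csn3 and Tnfrsf1b and the day 35 value of Edaradd rest on a group with 4 or 5 counts.

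Calls against untreated cells were made in rod primed and not in cone primed cells. In rod primed cells 5 of the 10 were called higher (Csn3, Tnfrsf1b, Aif1l, Ier3, Prkd1) and 4 lower (Edaradd, Hmgcll1, Adamts4, Il17ra), where 6.71% of all genes were called higher and 3.56% lower. Ngfr was not called, at 0.57 ± 0.26. The fitted values ran from -3.28 ± 0.45 for Edaradd to 2.79 ± 0.37 for Ier3. In cone primed cells 0 members were called by edgeR's quasi-likelihood test, 0 by DESeq2 and 0 at an unadjusted p under 0.05, where 0 of all genes were called and 200 had an unadjusted p under 0.05. The 8 members that could be fitted lay between -0.35 ± 0.49 and 0.09 ± 0.27 there. These comparisons share libraries with the cone minus rod comparison at day 0, and no value in one supports the other. Genes that respond to retinoic acid, which only the rod medium is labelled to hold, summed to 23.5 to 55.6 CPM in cone primed and 617 to 736 CPM in rod primed libraries, and to 238 to 302 CPM in cone and 1295 to 1570 CPM in rod cultures at day 35. The part of retinoic acid in the members' differences was not tested.

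**Figure D3:**
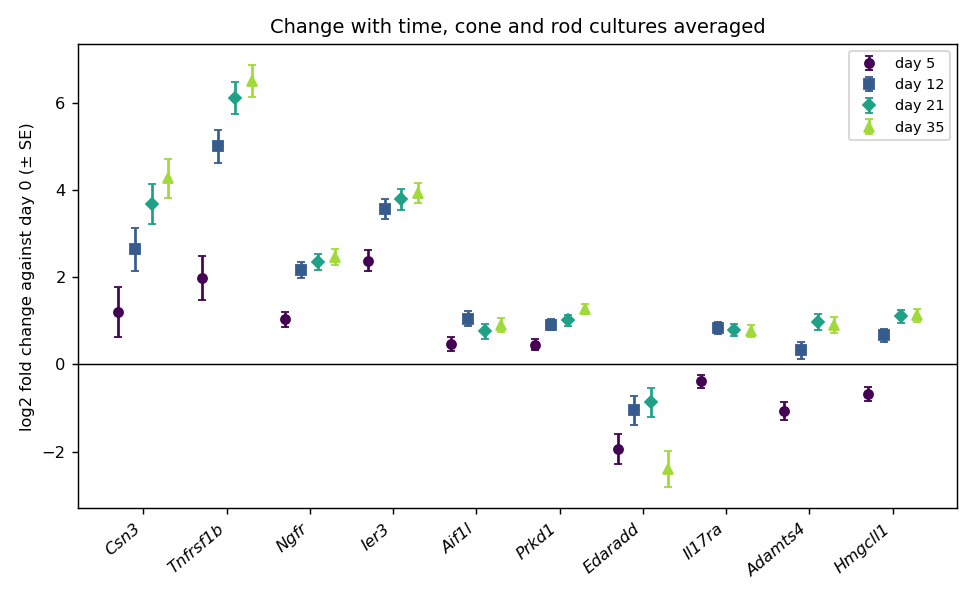
Log2 fold change against day 0 of the mean of cone and rod cultures, for each gene at days 5, 12, 21 and 35, with bars of 1 standard error from the model (6 libraries per time). By day 35 the values are above 0 for 9 genes, from 0.77 for Il17ra to 6.51 for Tnfrsf1b, and at -2.40 for Edaradd, where those of Csn3, Tnfrsf1b and Edaradd rest on a group with 4 or 5 counts.

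Leaving aside the averages that rest on a group near 0 counts, the averaged cultures changed against day 0 in 8 of 8 genes at day 5, with 4 higher and 4 lower, where 19.0% of all genes rose and 16.5% fell. The 4 that fell at day 5 were the 4 genes higher in cone cultures, Edaradd, Il17ra, Adamts4 and Hmgcll1. Of the 8 genes, day 12 had 6 higher and 1 lower (32.1% and 26.5% of all genes) and day 21 had 7 and 1 (33.9% and 30.1%). At day 35 all 7 that remain without Edaradd were higher (35.5% and 31.8% of all genes). With the averages set aside here put back, the counts would be 9, 9, 10 and 10 of the 10 genes. They are given only as the base for the alternatives below, and nothing is read from them. The median log2 change of the 10 genes at day 35 was 1.20, beside 0.03 over all genes tested, and 3 of the 10 values rest on a group near 0 counts. Marker sums of Muller glia moved in the same period, from 593 to 732 CPM in cone primed and 1189 to 1471 CPM in rod primed libraries to 3933 to 4795 CPM in cone and 4452 to 7244 CPM in rod cultures at day 35. Astrocyte marker sums went from at most 13.9 CPM in primed libraries to 260 to 409 CPM at day 35. Mesenchyme marker sums went from at most 15.2 CPM in primed libraries to 325 to 4076 CPM at day 35. Whether the genes' rises belong to these cells was not tested.

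Relatives and partners of the members came from 10 family lists of 170 genes in all, of which 131 were tested. Called higher in cone than in rod cells were 1, 3, 19, 6 and 11 of them in order of days, and called lower were 14, 12, 11, 9 and 6. Of all genes tested, 2.50%, 3.48%, 5.98%, 5.86% and 7.77% were called higher in the same order. Those called lower were 4.77%, 5.80%, 4.12%, 3.14% and 4.51%. Their median cone minus rod values lay between -0.16 and 0.09. A call with 1 sign at each of the 5 days was found for 2 of the 131, both ADAMTS proteases. The difference changed with day (a test over the 5 days, 4 degrees of freedom) in 18 of the 131, where 9.22% of all genes were called. Leaving out 1 library moved the count of calls by over 1.5 times in several cases, and the counts without each such library are given with the other alternatives.

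In the ADAMTS family and its hyalectan substrates, all 21 genes were tested, and the 2 genes called at every day had the opposite sign to Adamts4. Adamts5, the other main aggrecanase, was lower in cone cultures by -2.16 ± 0.28 at day 0 (edgeR adjusted p 1.09e-05) and by -1.05 ± 0.26 at day 35 (0.00809, or 0.0653 without cone day 35 replicate 1), and its day 12 call (0.00264) was lost in a fit of the compared libraries only (0.0947). Its mean went from 18.0 and 80.8 CPM in cone and rod primed cells to 213 and 441 CPM at day 35. Adamts16 was lower in cone cultures by -3.29 ± 0.66 at day 0 (0.00201) and by -2.81 ± 0.40 at day 35 (2.24e-05), and its day 21 call (-1.42 ± 0.37, 0.0156) was lost without cone day 21 replicate 1 (0.0844) or rod day 21 replicate 3 (0.0755). Adamts14, a procollagen-processing member, was higher in cone cultures, by 3.45 ± 0.45 at day 35 (8.57e-06), with mean levels of 19.5 CPM in cone and 1.76 CPM in rod cultures. Adamts1 was lower in cone primed cells by -1.14 ± 0.28 (0.0103), a call lost without cone primed replicate 3 (0.0569) or rod primed replicate 3 (0.0661), and Adamts9 was called at none of the days. Mesenchyme markers, which include fibrillar collagens, summed to 705 to 4076 CPM in cone and 325 to 862 CPM in rod cultures at day 35, and their part in these differences was not tested.

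**Figure D4:**
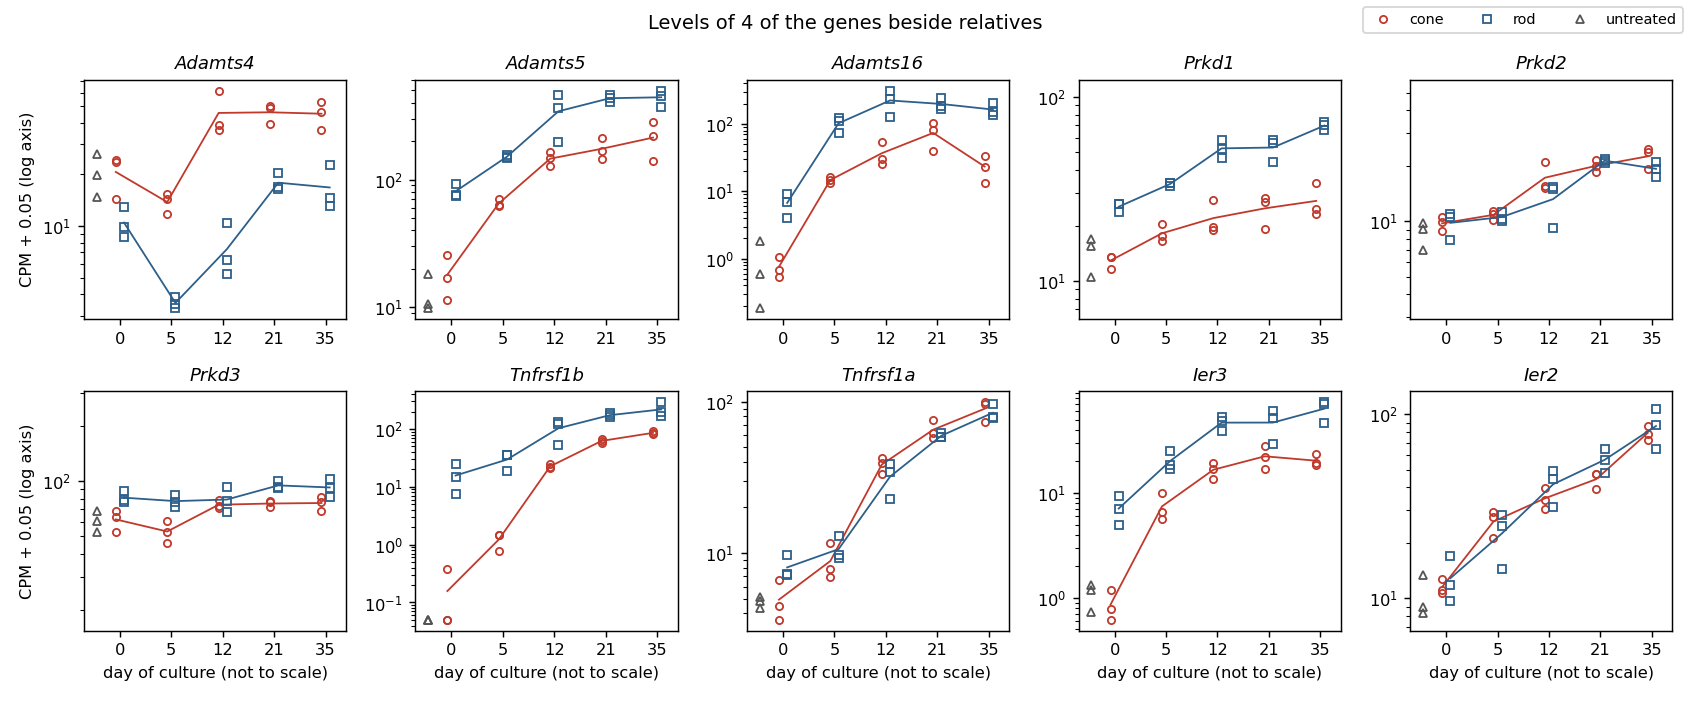
CPM (log axis, 0.05 added, scale set per panel) of 4 of the genes beside relatives in each library, with lines through group means of 3 libraries and untreated cells left of day 0. Adamts5 and Adamts16 are higher in rod cultures where Adamts4 is higher in cone cultures, and Tnfrsf1a, Prkd2 and Ier2 show overlapping cultures at day 35.

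Among neurotrophins and their receptors 13 of 14 genes were tested. Bdnf, one of the neurotrophin ligands, was higher in cone cultures at day 35 by 1.28 ± 0.34 (edgeR adjusted p 0.0126), at 44.0 against 18.1 CPM, a call lost without cone day 35 replicate 3 (0.0547) or rod day 35 replicate 1 (0.0868). Lingo1, a co-receptor of p75, was higher in cone cultures at day 35 by 1.84 ± 0.41 (0.0029, or 0.0514 by voom with quality weights). Sort1, the sortilin partner of p75, was called lower in cone cultures at days 0, 12 and 35 by between -0.37 ± 0.09 and -0.30 ± 0.09. The calls of Sort1 were lost on leaving out 2 of the 6 libraries one at a time at day 0, 4 at day 12 and 2 at day 35. The receptor Ntrk2 was called higher in cone cultures at day 21, with 3 such losses, and Ntrk3 at none of the days.

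In the remaining lists the calls were scattered over days. The shares of all genes called at each day, given with the family totals above, apply to each list, and nothing is read from the counts alone. Of the TNF receptor superfamily 16 of 23 were tested, and 1, 2, 3, 1 and 4 were called in order of days. Tnfrsf13c was lower in cone cultures at day 5 by -3.37 ± 0.65 (edgeR adjusted p 0.00121), at means of 0.397 and 4.18 CPM. Of 26 tested receptor adaptors and NF-kB genes, 3, 2, 4, 0 and 2 were called, Birc3 being higher in cone cultures at day 12 by 2.14 ± 0.48 (0.00456, or 0.170 in a fit of the compared libraries only). Of 9 tested genes of the IL-17 list, 0, 1, 1, 1 and 0 were called. Il17rc and the adaptor Traf3ip2 were called at none of the days, and Il17rd at day 12 (0.0196, or 0.138 without rod day 12 replicate 2). Among 22 immediate-early genes 0, 1, 7, 5 and 1 were called. Ier5 was higher in cone cultures at day 12 by 0.97 ± 0.22 (0.00355, or 0.150 in a fit of the compared libraries only) and Ier2 at no day, Atf3 was lower at day 21 by -1.63 ± 0.33 (0.00158), and Klf4 was higher at day 35 by 2.07 ± 0.38 (0.000427). Tnfrsf11b and Ntf3 were lower in cone primed cells at day 0, each call being lost on leaving out 4 of the 6 libraries one at a time. The value of Tnfrsf11b rests on 4 cone primed counts.

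Within the set the levels fell into groups that followed the cultures. Across the 33 libraries Tnfrsf1b, Ngfr, Ier3, Aif1l and Prkd1 correlated with each other at Pearson's r of 0.79 to 0.94 on log2 CPM. Il17ra, Adamts4 and Hmgcll1 did so at 0.86 to 0.91, and Edaradd correlated with these at 0.58 to 0.69 and with Prkd1 and Aif1l at -0.82. These are descriptions over libraries that share culture and day, which alone can give such values. The tested genes most alike, apart from unnamed models, were Optc (r = 0.981) and Cd38 (0.980) for Tnfrsf1b, Slc12a2 (0.965) and Pfkfb3 (0.962) for Ngfr, Adra1d (0.894) and Kcnf1 (0.865) for Il17ra, and Ank2 (0.906) and Kif26a (0.888) for Edaradd. For Ier3 they were Epas1 (0.969) and Eno1 (0.965), for Aif1l Triobp (0.925), and for Prkd1 Cpm (0.927) and Ncoa3 (0.924). For Adamts4 they were Nhsl1 (0.924) and Hmgcll1 (0.910), for Hmgcll1 Sfxn3 (0.926) and Smap2 (0.920), and for Csn3 Rin2 (0.904) and Arf6 (0.884).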

How the data were processed

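The 10 genes, the family lists, the marker lists and the comparisons were chosen with earlier results of these data known, so none of them is independent of the data. Total RNA was sequenced in 33 libraries. Per gene, the authors deposited raw read counts. Summary lines for unassigned reads were dropped, and genes received 26.9% to 34.9% of counted reads. The TPM, FPKM and coverage values in the other tables deposited by the authors, per the file headers, are per-gene abundances. The submitters' processing notes name HISAT2, StringTie and HTSeq and the build GRCm38, with no versions. Strand settings are not given in the sources used here, so overlapping and antisense genes may share reads. TPM served only as an alternative. Of genes with at least 100 counts, 19.0% to 32.0% per library are listed at a TPM of 0. So are 64 of 241 such values of the 10 genes. Their TPM values above 0 were low too, the highest being 7.96 for Aif1l in rod day 12 replicate 1, at 205 CPM. In rod cultures of day 35 Tnfrsf1b read 289, 167 and 197 CPM but 0.930, 1.13 and 1.34 TPM. In cone cultures of day 35 Csn3 read 159, 119 and 145 CPM but 5.98, 1.06 and 3.71 TPM. Whether counts or TPM give the truer level was not tested. Levels were therefore not compared between genes, and FPKM and coverage were not used.

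Genes were filtered by filterByExpr (minimum count 10), scaling was by TMM, and all 33 libraries entered 1 quasi-likelihood fit in edgeR 4.0.16 (R 4.3.3). A gene was called at an adjusted p under 0.05. The averaged change is the mean of the cone and rod log2 changes since day 0. A group was treated as at the floor at a mean of 3 counts per library or less, and 95% counting intervals are exact. All 10 genes are named, with 25 partner genes (20 tested), up to 2 further genes per family list called at the most days (9 in all), and per gene the 2 most correlated others. Some of the genes this rule names are not reported here. Promoters are from RefSeq on GRCm38.p6. On simulated data of 18150 genes for the day 35 average, 70.7% of 2-fold and 89.7% of 4-fold changes were recovered with 6 false calls. Only 99 tested genes were changed 2-fold and 97 were changed 4-fold there. In the data 35.5% of all genes rose and 31.8% fell in this average, so these rates do not carry over to it. Alternatives were DESeq2 1.42.0 and its size factors (RLE), no filter, a mean filter of 1 CPM, voom with quality weights (limma 3.58.1), the compared libraries only, limma on log2(TPM + 1), a replicate block and leaving out each library. Tables and figures used Python 3.11.15. No library or sequencing batch is named in the labels.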

Additional observations from a re-analysis of the deposited data

Results flagged for a closer look

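The difference between cultures depended on day for 6 family genes named above, by edgeR's F test over the 5 days. The adjusted p was 0.00461 for Ntf3, 0.0107 for Bdnf, 0.0118 for Klf4, 0.0183 for Tnfrsf11b, 0.0298 for Birc3 and 0.047 for Il17rd. Ntf3 and Tnfrsf11b were called lower in cone cells at day 0, with the losses given above. Tnfrsf11b had 4 counts over the cone primed libraries against 43 over the rod primed ones. Birc3 was also called lower at day 0 (edgeR adjusted p 0.0433), from 0 against 9 counts. Both of these groups were at or under the floor, so nothing is read from that call. The test of Birc3 over the 5 days includes these groups. At day 12 Ntf3 was called higher, a call lost without cone day 12 replicate 3 (0.112) or rod day 12 replicate 2 (0.0562). Bdnf, Klf4 and Birc3 were called higher in cone cultures at days 12 and 35. At day 12 the call of Bdnf was lost on leaving out any of 3 of the 6 libraries (0.106 without rod day 12 replicate 2) and that of Klf4 on leaving out any of 4 (0.149 without that library). At day 35 the call of Birc3 was lost on leaving out any of 4. In a fit of the compared libraries only, the day 12 calls of all 4 genes were lost. The dependence on day was no longer called for Il17rd without any of 21 of the 30 libraries left out one at a time (adjusted p up to 0.150), and for Birc3 without 5, all of them primed libraries: cone primed replicates 1 (0.0592), 2 (0.0741) and 3 (0.0704) and rod primed replicates 2 (0.116) and 3 (0.0873). With voom quality weights the adjusted p was 0.190 for Tnfrsf11b.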

How the results depend on the processing

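Counts of called members were within 1.5 times the values above under RLE, both filters, DESeq2, voom, the compared libraries only and the replicate block. The counts for the averages, and the refits of averages below, include Csn3, Tnfrsf1b and Edaradd at day 35, whose averages are given above with no test. Leaving out 1 library gave 7 to 9 called members for the day 5 average and 7 to 8 between primed cultures, and 8 to 10 elsewhere, with 0 for cone primed against untreated cells. On log2(TPM + 1) the averaged counts were 1, 2, 5 and 3 in order of days, those between cultures 0, 0, 0, 1 and 0, and 0 for rod primed cells. Family calls between cultures were then 0, 2, 3, 0 and 1, and 0 for the change with day. Of genes with at least 100 counts, 19.0% to 32.0% per library are listed at a TPM of 0, and the part of this was not tested. With voom, family calls were 27, 25, 49, 44 and 26, and 42 for the change with day (39 with DESeq2). With the compared libraries only they were 29 at day 5 and 6 at day 12. The cause was not tested.

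Leaving out 1 library, family calls ran from 5 (without cone primed replicate 3) to 15 at day 0, where cone primed replicate 1 and rod primed replicate 2 gave 9 and rod primed replicate 3 gave 7. They ran from 9 (without rod replicate 1) to 12 at day 5, and from 15 (without cone or rod replicate 3) to 42 (without rod replicate 1) at day 12, with 19 without cone replicate 1 and 17 without rod replicate 2. The ranges were 11 to 19 at day 21, 11 (without rod replicate 1) to 15 at day 35, and 14 to 41 (without rod day 12 replicate 1) for the change with day.

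With the replicate block, members called stayed at 9, 9, 10 and 10 in the averages and family calls were 14, 17, 32, 16 and 18, with 21 for the change with day. Same-numbered libraries deviated together at a median r of 0.016, 0.059 and -0.005 for numbers 1, 2 and 3, and 14 of 33 libraries correlated best with their own number, so the numbers were not taken to pair libraries.

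Directions of called values, and of averaged values whether called or not, reversed only on log2(TPM + 1). The uncalled Csn3 difference at day 12 also turned without 1 library, as given above. In the averages these were Tnfrsf1b -0.0347 at day 5, Edaradd 0.018 at day 21, Hmgcll1 -0.00546 at day 12 and -0.0284 at day 35, Adamts4 0.074 and Il17ra 0.11 at day 5, and Il17ra -0.0475 at day 35. Cone minus rod gave Tnfrsf1b 0.084 at day 35, Edaradd -0.050 at day 5, Hmgcll1 -0.17 at day 21, Ier3 0.26 at day 0 and 0.48 at day 21, Prkd1 0.086 at day 0, Il17rd -0.0402, Bdnf -0.13 and Atf3 0.25 at day 12, and Prkd3 0.40 at day 5. Rod primed against untreated gave Ier3 -0.28 and Prkd1 -0.19, and day 35 against day 0 in cone cultures gave Hmgcll1 -0.057 and Aif1l -0.057. Of the 320 refits of members in the averages that kept all libraries, 289 kept direction and side of the threshold, 22 lost the call, 2 gained it and 7 reversed. Of 480 that left out 1 library, 463 kept both and 17 lost the call.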

Other observations

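At day 35 in the averaged cultures, 116 of the 131 tested family genes differed from day 0 by edgeR's quasi-likelihood test, 95 higher and 21 lower, with a median log2 change of 1.55, where 35.5% of all genes rose and 31.8% fell with a median of 0.03. All 9 tested genes of the IL-17 list, which holds 16, were called higher at days 12, 21 and 35, with a median of 4.68 at day 35. A gene can pass the filter through its late groups alone, and a rise is then partly set by the filter. Il17rc had 4 and 11 counts in cone and rod primed cells and 472 and 270 at day 35, while Il17rd already had 1848 and 1749 in primed cells. Nothing is read from the list's share of rises. Of the 22 immediate-early genes 19 were higher and 2 lower at day 35, of the 21 ADAMTS and hyalectan genes 15 were higher and 3 lower, and of the 16 tested TNF receptor superfamily genes 12 were higher and 1 lower. Of the 7 tested HMG-CoA and ketone body genes 2 were higher and 4 lower. Markers of other cells rose in the same comparison, in 8 of 8 mesenchyme genes (median log2 change 7.69), 5 of 5 astrocyte genes (5.43), 6 of 8 Muller glia genes (2.14, with 1 lower) and 6 of 9 tested microglia genes (2.04). Their part in the rises of the family lists was not tested.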
